A study of Mus musculus with 24 samples.

Results

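Mouse pulmonary fibroblasts of TLR4 -/- label were compared with wild type (WT) pulmonary fibroblasts after both had been treated with recombinant mouse TGF-β1 (rmTGF-β1), to describe how fibrotic and macrophage genes differed between the genotypes under TGF-β1. The comparison takes the 3 libraries of each genotype whose labels give rmTGF-β1 alone, which are 6 of the 24 libraries of the series, and the 15735 genes that passed the filter on low counts and are neither X- nor Y-linked, of 16258 genes tested. Both groups received 2 ng/ml rmTGF-β1 for 24 h and no rmCIRP, the cold-inducible RNA-binding protein that other libraries of the series received. Mice of both genotypes had a C57BL/6 background and were 4 to 8 weeks old, and the TLR4-/- mice came from Jackson Labs. Each group of fibroblasts was isolated from pooled lungs, 3 to 4 per pool, and was used at passages 3 to 6 after a night in the reduced serum medium Opti-MEM. Nothing in the sources says that the 3 libraries of a group came from separate isolations, so genotype and lung pool cannot be told apart. The p-values rest on the spread between libraries of the same group, estimated over all 24 libraries of the series. That spread may be technical.

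TGF-β1 is the main growth factor known to turn fibroblasts into myofibroblasts. It binds the receptors Tgfbr2 and Tgfbr1, which activate SMAD proteins, and these raise the transcription of collagens, of the matrix glycoproteins around them and of the contractile proteins of smooth muscle. TLR4 is the receptor of innate immunity that recognizes bacterial lipopolysaccharide together with MD-2, the product of Ly96. Macrophages are the resident phagocytes of the lung: they depend on the receptor Csf1r, and the alveolar ones also on the receptor for the growth factor GM-CSF. Cultures grown out of whole lung can hold macrophages beside fibroblasts, and in RNA from such a bulk culture fewer cells of a type and less RNA per cell cannot be told apart.

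The gene targeted in the TLR4-/- mice was read first. Tlr4 had normalized counts of 671, 649.9 and 629.7 in the 3 WT libraries and of 702, 808 and 769 in the 3 libraries labelled TLR4-/-. It was thus not lower under the label but slightly higher, with a log2 fold change of 0.23 (SE 0.06, edgeR adjusted p = 0.0025). Whether reads fell on a deleted stretch cannot be read from totals per gene. The groups are therefore called by their labels throughout. Ly96, the partner of TLR4, had normalized counts of 258 ± 20.9 (SD, n = 3) under WT and of 242 ± 4.11 (SD, n = 3) under the TLR4-/- label, and the groups overlapped.

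Reads on genes ranged from 31585969 to 39664606 per library over the 6 libraries. Xist, transcribed from the inactive X chromosome of female cells, had at most 2 raw counts in the WT libraries and 4609 to 6061 in those labelled TLR4-/-, and the Y-linked Ddx3y had 3951 to 5044 in WT and 1738 to 2495 under the label. Reads of male cells were thus present in both groups and reads of female cells in appreciable number under the label alone, and the makeup by sex cannot be told apart from genotype. The third library labelled TLR4-/- stood apart from the other two of its group: a chi-square of the counts, divided by its degrees of freedom, was 3.84 between the first and the second, 13.1 between the first and the third and 17.2 between the second and the third, against 3.41 to 5.13 between WT libraries. Of 7270 genes past the threshold with all libraries, 6170 were also past it without this library, each in the same direction.

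Of the 15735 genes, 7270 differed between the genotypes with rmTGF-β1 at an adjusted p under 0.1. They divided into 3830 genes (24.3%) that were higher and 3440 (21.9%) that were lower in the labelled TLR4-/- libraries. A difference of at least 2-fold was found for 1545 of them, 1087 higher and 458 lower. The median log2 fold change over all tested genes was 0.01. The lists that follow are to be read against these shares.

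Macrophage genes were higher in the libraries labelled TLR4-/-. Of 125 tested members of the 7 macrophage lists, 100 (80.0%) rose, 11 (8.80%) fell and 14 did not pass the test, and their median log2 fold change was 1.19. Of the 100, 6 averaged under 10 normalized counts in WT. The pan-macrophage identity genes moved together: all 25 members were higher, by 1.57 to 4.09 on the log2 scale with a median of 2.30, and in none of them did the 3 WT and the 3 labelled TLR4-/- libraries overlap (all 3 libraries lay above for 25.0% of all tested genes). Summed over the 25 genes, the level was 92330 to 105400 normalized counts in WT and 411900 to 432900 in labelled TLR4-/- libraries.

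The receptor and the transcription factor that define macrophages gave the same picture in each library. Csf1r, the receptor for macrophage colony-stimulating factor, had normalized counts of 2848, 2495 and 2716 in WT and of 13084, 12964 and 13229 in labelled TLR4-/- libraries. Its log2 fold change was 2.29 (SE 0.07, edgeR adjusted p = 4.8e-17), a 4.90-fold difference, and libraries of a group lay close together. Csf1, the gene of its ligand, did not pass the test, with 116828 ± 5895 (SD, n = 3) normalized counts against 121453 ± 4730 (SD, n = 3) under the label. Spi1, which encodes PU.1, the transcription factor that sets up the myeloid lineage, had 481, 466 and 458 in WT against 2148, 2035 and 2146. Spi1 was thus higher in each library of the label, with a log2 fold change of 2.18 (SE 0.08).

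Surface and secreted products of macrophages followed, at sizes that differed from gene to gene. Ptprc, the pan-leukocyte antigen CD45, had 613, 518 and 609 normalized counts in WT and 3060, 3099 and 3295 in labelled TLR4-/- libraries. Adgre1, which encodes the macrophage antigen F4/80, had 1907, 1620 and 1890 against 7239, 6661 and 7409. The chains of complement C1q, which macrophages secrete, rose together, with log2 fold changes of 3.00 (SE 0.09) for C1qa, 2.72 (SE 0.09) for C1qb and 2.81 (SE 0.08) for C1qc. Lyz2, the myeloid lysozyme, had normalized counts of 72698 ± 5095 (SD, n = 3) against 284886 ± 6870 (SD, n = 3), a 3.94-fold difference. At the ends of the range stood Cd14, the co-receptor that passes lipopolysaccharide to TLR4, at 2.96-fold, and Cx3cr1, the fractalkine receptor, at 17.1-fold. Cx3cr1 had 63.5, 63.0 and 79.5 in WT and 1298, 1112 and 1116 in labelled TLR4-/- libraries.

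**Figure D1:**
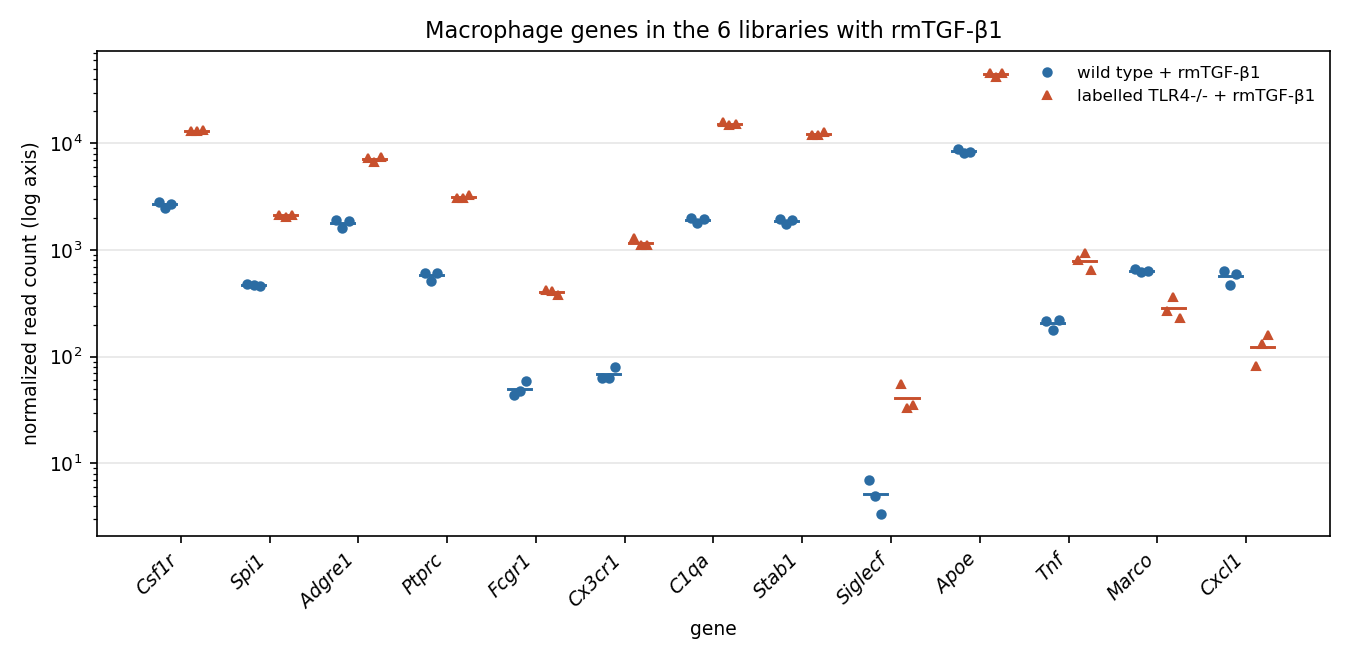
Normalized read counts (vertical log axis) of 13 macrophage genes in the 3 WT libraries (blue circles) and the 3 libraries labelled TLR4-/- (orange triangles) with rmTGF-β1; each point is a library and each bar the mean of 3. Csf1r sits at 2495 to 2848 in WT and at 12964 to 13229 in labelled TLR4-/- libraries, while Marco and Cxcl1 lie the other way.

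Most genes of the alveolar macrophage list rose. Of 22 tested members of the alveolar list, 19 rose, 1 fell and 2 did not pass the test, while 6 others had too few reads to be tested. Of the 19, Siglecf, Chil3 and Ear2 averaged under 10 normalized counts in WT, and among these 6 libraries only those of the label were high enough for the filter, so the count leans on it. Siglecf, a lectin of alveolar macrophages and eosinophils, had 7.06, 5.0 and 3.38 normalized counts in WT and 55.9, 32.9 and 35.5 in labelled TLR4-/- libraries, so it rose from a very low level. Chil3, a chitinase-like protein that alveolar macrophages make in quantity, had 0, 1.00 and 0 against 30.3, 18.1 and 23.9. The subunits of the GM-CSF receptor rose, with log2 fold changes of 1.55 (SE 0.09) for Csf2ra and 2.06 (SE 0.15) for Csf2rb. Csf2rb and its near-identical neighbour Csf2rb2 share sequence, so the split of reads between them is uncertain, and the same holds for Lyz2 and its relative Lyz1. Marco, a scavenger receptor that alveolar macrophages bear, fell: it had 658, 622 and 641 in WT and 269, 360 and 229 in labelled TLR4-/- libraries, a log2 fold change of -1.17 (SE 0.12, edgeR adjusted p = 6.9e-08). Pparg, the nuclear receptor that alveolar macrophages need to mature, did not pass the test, at 79.8 ± 6.64 (SD, n = 3) against 76.1 ± 6.95 (SD, n = 3). Car4, the other tested member that did not pass, had at most 1 raw count in any of the 6 libraries. Fabp1 and Ear1 had no read in any of the 6 libraries.

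Of 14 tested genes of interstitial macrophages and monocytes, 9 rose, 4 fell and 1 did not pass the test. Stab1, a scavenger receptor of tissue macrophages that takes up damaged protein, had 1950, 1738 and 1919 normalized counts in WT and 12087, 12114 and 12706 in labelled TLR4-/- libraries, a 6.62-fold difference. Folr2 and Cd163, surface markers of tissue-resident macrophages, rose from low levels, with log2 fold changes of 2.54 (SE 0.21) and 2.25 (SE 0.31), and Lyve1 had at most 14.9 normalized counts in each of the 6 libraries and did not pass the test. Of the genes known from blood monocytes, Ly6c2 had no read and Ccr2 between 2 and 11 raw counts per library, whereas Plac8, at 4488 ± 144 (SD, n = 3) normalized counts in WT, and F13a1, which encodes a chain of clotting factor XIII and rose by 1.79 (SE 0.16) on the log2 scale, were well counted. The 4 members that fell were Vcan, Nr4a1, Ccl7 and Plac8. Vcan encodes versican, a proteoglycan that fibroblasts make as well, and is also in a fibrotic list. Nr4a1, an early-response nuclear receptor, had 2802, 1935 and 2156 against 1168, 1409 and 1348.

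Genes of MHC class II presentation were mostly higher under the label, and several were low in both groups. Cd80 was well counted, at 932 ± 61.6 (SD, n = 3) normalized counts in WT and 1368 ± 89.0 (SD, n = 3) under the label. Of 9 tested members, 8 rose and 1 did not pass the test, while 4 others had too few reads to be tested. The count leans on the filter: 3 of the 8, H2-Ob, H2-DMb2 and Cd74, averaged under 10 normalized counts in WT, and among these 6 libraries only those of the label were high enough for it. H2-Ab1, a class II chain, had 78.7, 74.0 and 73.5 normalized counts in WT and 159, 165 and 171 in labelled TLR4-/- libraries. Cd86, a co-stimulatory ligand for T cells, rose more, from 38.7 ± 5.26 (SD, n = 3) to 345 ± 36.3 (SD, n = 3), a log2 fold change of 3.16 (SE 0.21). H2-Aa, the partner chain of H2-Ab1, had at most 2 raw counts and Ciita, the transactivator of class II genes, at most 6 in any of the 6 libraries.

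Scavenger and lipid-handling receptors and the lysosomal enzymes that digest what they take up were also higher. Of 19 scavenger and lipid genes tested, 13 rose, 3 fell and 3 did not pass the test. Apoe, an apolipoprotein that macrophages secrete, had 8771, 8157 and 8282 normalized counts in WT and 45927, 41612 and 45543 in labelled TLR4-/- libraries, a 5.31-fold difference, and Msr1, the class A scavenger receptor, rose by a log2 fold change of 2.10 (SE 0.06). Besides Marco, the members that fell were Colec12 and Axl, receptors that mesenchymal cells express too, by a log2 fold change of -0.22 (SE 0.04) and -0.17 (SE 0.04). Of 19 lysosomal genes tested, 18 rose and 1 did not pass the test, with a median log2 fold change of 0.76. Ctss, a cathepsin of antigen-presenting cells that is also in the identity list, rose by 2.00 on the log2 scale (SE 0.08), and Ctsd, a cathepsin of all lysosomes, by 1.19 (SE 0.06). Ctsk, a collagen-cutting cathepsin made by fibroblasts and osteoclasts, did not pass the test and had 3111 ± 26.5 (SD, n = 3) against 3068 ± 70.2 (SD, n = 3).

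Among 25 tested cytokine and chemokine genes, 15 rose, 4 fell and 6 did not pass the test. Tnf, the inflammatory cytokine tumor necrosis factor-α, had 217, 180 and 222 normalized counts in WT and 800, 934 and 657 in labelled TLR4-/- libraries, a log2 fold change of 1.95 (SE 0.13, edgeR adjusted p = 2.3e-11). Il1b, which encodes IL-1β, had 21.2, 10.0 and 19.4 against 90.9, 74.4 and 127. Spp1, which encodes osteopontin and counts in both the cytokine and the matricellular list, had 45614, 40685 and 47090 against 201451, 197716 and 194727. Chemokines were among the 4 that fell and among the 15 that rose. Cxcl2 and Cxcl16 were among the latter, by 0.67 (SE 0.24) and 0.72 (SE 0.09) on the log2 scale. Cxcl1, which attracts neutrophils, fell with 637, 474 and 603 in WT and 81.4, 132 and 159 in labelled TLR4-/- libraries, and Ccl2, which attracts monocytes, fell by a log2 fold change of -0.47 (SE 0.17). The call of Ccl2 was lost without the first WT library (-0.40) or the first library labelled TLR4-/- (-0.41). The other members that fell were Igf1, a growth factor, and Vegfa, the vascular growth factor, whose groups overlapped. Vegfa, at -0.25, was no longer called without the first WT library (-0.22) or without the first (-0.21) or the second (-0.17) library labelled TLR4-/-. Il6 did not pass the test, at 11559 ± 1765 (SD, n = 3) against 8784 ± 995 (SD, n = 3), but did when only the 6 libraries compared were fitted (edgeR adjusted p = 0.017).

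Fibrotic genes were mostly lower, by smaller amounts. Of 164 tested members of the 9 fibrotic lists, 89 (54.3%) fell, 29 (17.7%) rose and 46 did not pass the test, with a median log2 fold change of -0.24. A difference of at least 2-fold was found in 16 of those that fell and in 6 of those that rose. In 97 members the 3 labelled TLR4-/- libraries lay below the 3 WT libraries (24.2% of all tested genes did) and in 28 above. Without the third library labelled TLR4-/-, 84 members fell and 25 rose. Members of the macrophage lists and the fibroblast identity genes moved in the same libraries, and their part in these differences was not tested: the median log2 fold change of the fibroblast identity list was -0.64. Without the 4 members that are also in a fibrotic list (Col1a1, Col1a2, Dcn and Lum), the summed level of that list was 165500 to 172700 normalized counts in WT and 138200 to 149700 in labelled TLR4-/- libraries. Vim, which rose, averaged 81590 of these counts in WT and 91190 under the label, so the sum leans on it. The median log2 fold change of the 21 tested genes left was -0.84.

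The fibrillar collagens, which build the fibres of scar tissue, had a median log2 fold change of -0.11. Col1a1 and Col1a2, the chains of type I collagen, did not pass the test, although all 3 labelled TLR4-/- libraries lay below the WT ones in both. Col1a1 had 272685, 290550 and 285473 normalized counts in WT and 268347, 261565 and 239692 in labelled TLR4-/- libraries, a log2 fold change of -0.13 (SE 0.08, edgeR adjusted p = 0.19). When only the 6 libraries compared were fitted, the same difference of Col1a1, then -0.14, did pass, with an edgeR adjusted p of 0.040. Col3a1, the chain of type III collagen, fell, with 85482, 69318 and 74529 in WT against 55467, 55612 and 55841, a log2 fold change of -0.45 (SE 0.12, edgeR adjusted p = 0.0046). Of the 10 genes of the list, 3 fell (Col3a1, Col5a1 and Col24a1), 1 rose and 6 did not pass the test. The member that rose, Col27a1, lost its call without the third library labelled TLR4-/-, where its log2 fold change was 0.19 (SE 0.10, edgeR adjusted p = 0.15). Col24a1 lost its call without the first WT library, at -0.53 with an adjusted p of 0.19 in edgeR, and without the first library labelled TLR4-/-, at -0.64 with 0.11.

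The other collagens had a median log2 fold change of -0.49. Of 18 other collagens tested, 12 fell, 1 rose and 5 did not pass the test. The chains of type VI collagen, which forms beaded microfilaments around cells, fell together: Col6a1 had 7196, 6522 and 6528 normalized counts in WT and 3637, 3808 and 3506 in labelled TLR4-/- libraries, and the log2 fold changes were -0.88 (SE 0.07) for Col6a1, -0.91 (SE 0.07) for Col6a2 and -0.76 (SE 0.06) for Col6a3. Col23a1, a transmembrane collagen, had the largest fall of the list, from 114 ± 32.6 (SD, n = 3) to 32.0 ± 11.4 (SD, n = 3). Col15a1, a basement membrane collagen, was the member that rose, with a log2 fold change of 0.53 (SE 0.09). Col4a2, with a log2 fold change of -0.13, and Col12a1, with -0.25, lost their calls without the third library labelled TLR4-/- (-0.12 and -0.22) and without the second WT library (-0.10 and -0.22).

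Of 13 elastic fibre genes, 11 fell, 1 rose and 1 did not pass the test, and the median log2 fold change was -0.81. Eln, the gene of elastin itself, had 4383, 5133 and 4811 normalized counts in WT and 2101, 1338 and 1130 in labelled TLR4-/- libraries, a log2 fold change of -1.64 (SE 0.24, edgeR adjusted p = 5.4e-06). Mfap4, a microfibril-associated protein that binds elastin, had 1126, 729 and 855 against 326, 266 and 313, and Efemp1, the fibulin-3 gene, 1803, 1651 and 1694 against 635, 646 and 564. The groups lay well apart in all 3 genes. Fbn1, the main fibrillin, fell less, by a log2 fold change of -0.30 (SE 0.05). Fbln2, which encodes fibulin-2, was the member that rose, by 0.21 (SE 0.05), and Mfap5 did not pass the test. Summed over the list, the level was 220700 to 234600 in WT and 221100 to 224100 in labelled TLR4-/- libraries. Fbln2 made up most of this sum, at a mean of 128200 in WT and 148000 under the label, so the sum does not show the fall of the other members.

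Enzymes that modify and crosslink collagen went both ways: of 22 tested, 10 fell, 7 rose and 5 did not pass the test. Lox, the lysyl oxidase that starts the crosslinks of collagen and elastin, rose, with 85846, 91598 and 84749 normalized counts in WT and 111694, 109083 and 115242 in labelled TLR4-/- libraries, a log2 fold change of 0.37 (SE 0.07). Its relative Loxl1, known for its part in elastic fibres, fell by a log2 fold change of -0.51 (SE 0.08). Pcolce2, an enhancer of procollagen cleavage, rose by 1.02 (SE 0.08), whereas Adamts2, a protease that removes the amino-terminal propeptide of procollagen, fell by a log2 fold change of -0.78 (SE 0.07). Plod1, a lysyl hydroxylase, was among those that rose, by 0.45 (SE 0.04).

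Contractile genes of the myofibroblast fell in all but a few cases. Of 18 tested, 14 fell, 1 rose and 3 did not pass the test, with a median log2 fold change of -0.32. Acta2, which encodes α-smooth muscle actin, the usual marker of myofibroblasts, had 303591, 328287 and 308796 normalized counts in WT and 248296, 248723 and 201060 in labelled TLR4-/- libraries, a log2 fold change of -0.42 (SE 0.10, edgeR adjusted p = 0.0018). Cnn1, the actin-binding protein calponin, had 50393, 53108 and 51160 against 31211, 30645 and 24774, and Myh11, smooth muscle myosin, 29915, 31618 and 29093 against 14371, 15679 and 12235. The third library labelled TLR4-/- was the lowest in all 3 genes, and the summed level of the list was 930500 to 980400 in WT and 642600 to 776200 in labelled TLR4-/- libraries. Without that library Cnn2, another calponin, and Lmod1, which nucleates actin filaments, were no longer past the threshold, at -0.17 and -0.36 in place of -0.25 and -0.54, and Cnn2 also lost its call without the second or the third WT library, at -0.24 each. Des, the muscle intermediate filament desmin, went the other way, with 4550, 4453 and 4152 in WT and 9298, 10249 and 7846 in labelled TLR4-/- libraries. Tagln, a further actin-binding protein, did not pass the test, at 715, 876 and 900 against 714, 733 and 713, and its exons overlap those of Pcsk7 on the other strand, so reads of the overlap may have been left out or shared. Its log2 fold change of -0.20 became -0.30 without the first WT library, where edgeR's adjusted p was 0.055.

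Matricellular genes, whose proteins sit in the matrix and signal to cells, ranged from members that did not pass the test to the largest rises among the fibrotic lists. Of 19 tested, 8 fell, 3 rose and 8 did not pass the test. Fn1, which encodes fibronectin, and Ccn2, a classical TGF-β target, were among those that did not pass. Fn1 had 252600, 253286 and 238355 normalized counts in WT and 251265, 260208 and 247534 in labelled TLR4-/- libraries, a log2 fold change of 0.04 (SE 0.06, edgeR adjusted p = 0.69). Tgfbi, a TGF-β-induced adhesion protein that macrophages also secrete, rose 4.31-fold, with 1059, 823 and 933 in WT against 4143, 3094 and 4832. Postn, which encodes periostin, rose by a log2 fold change of 0.81 (SE 0.07), and the remaining member that rose was Spp1. Tnc, tenascin-C, fell by a log2 fold change of -0.45 (SE 0.07) and Sparcl1, a relative of SPARC, by a log2 fold change of -1.48 (SE 0.22).

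Proteoglycans organize collagen fibrils and bind growth factors. Of 14 tested members of the list of proteoglycans and hyaluronan genes, 6 fell, 2 rose and 6 did not pass the test. Fmod, fibromodulin, had 870, 708 and 766 normalized counts in WT and 220, 227 and 142 in labelled TLR4-/- libraries, a log2 fold change of -1.99 (SE 0.15, edgeR adjusted p = 1.9e-10). Prelp, a proteoglycan that anchors basement membranes, had 9875, 9379 and 8599 against 3246, 3652 and 2836, and Vcan 12827, 11718 and 11375 against 5154, 5529 and 5547. The groups did not overlap in any of these 3 genes. Has2, the main hyaluronan synthase of fibroblasts, fell by a log2 fold change of -0.31 (SE 0.07). Dcn, decorin, was among the members that rose, by 0.22 (SE 0.06).

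Of 22 tested matrix proteases and their inhibitors, 10 fell, 5 rose and 7 did not pass the test. The proteases that rose include those known from macrophages. Mmp12, macrophage elastase, had 3990, 3636 and 4206 normalized counts in WT and 7743, 8354 and 7835 in labelled TLR4-/- libraries, and Mmp9, gelatinase B, 1355, 986 and 1259 against 2377, 2470 and 2700. Mmp8, the neutrophil collagenase, fell, with 3518, 3097 and 2961 against 1566, 1512 and 1476. Mmp13, an interstitial collagenase, rose with a log2 fold change of 0.57 (SE 0.22, edgeR adjusted p = 0.044), which without the third library labelled TLR4-/- was 0.37 (SE 0.23, edgeR adjusted p = 0.24) and without the third WT library 0.51 (edgeR adjusted p = 0.13). Fap, a protease of activated fibroblasts, rose by 0.64 (SE 0.10).

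Genes of the TGF-β system itself differed at several steps. Of 28 tested ligands, receptors, binders and targets, 15 fell, 8 rose and 5 did not pass the test. Among the ligands, Tgfb1 rose, with 5942, 5553 and 5653 normalized counts in WT and 7176, 6156 and 8241 in labelled TLR4-/- libraries, while Tgfb3 fell by a log2 fold change of -0.61 (SE 0.13). The binders of latent TGF-β fell, with log2 fold changes of -0.70 (SE 0.05) for Ltbp1 and -0.62 (SE 0.08) for Ltbp2. Of the receptors, Tgfbr1 rose by 0.42 (SE 0.09), Tgfbr2 did not pass the test at 5829 ± 192 (SD, n = 3) against 5831 ± 77.7 (SD, n = 3), and Tgfbr3, the co-receptor betaglycan, fell, with 1233, 1017 and 1087 against 506, 572 and 544. Smad6, an inhibitory SMAD, fell by a log2 fold change of -0.94 (SE 0.16) and Smad7, the other inhibitory one, by a log2 fold change of -0.21 (SE 0.05).

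Il11, an interleukin that TGF-β induces in fibroblasts, varied more among the libraries of the label than among those of WT. It had 56853, 53644 and 52538 normalized counts in WT and 27069, 19038 and 45813 in labelled TLR4-/- libraries. The difference passed the test at a log2 fold change of -0.82 (SE 0.24, edgeR adjusted p = 0.0082), and the third library of the label was closer to WT than to the other two. The targets Bambi, Id2 and Tgif1 and the ligase gene Smurf1 lost their calls without that library, with log2 fold changes of -0.16, -0.08, 0.14 and 0.06 in place of -0.29, -0.14, 0.26 and 0.10. Of these, Bambi also lost it without the second WT library (-0.27), the third WT library (-0.27) or the second library of the label (-0.30), Id2 without the third WT library or the first one of the label (-0.12 each), and Smurf1 without the first (0.07) or the third (0.10) WT library.

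**Figure D2:**
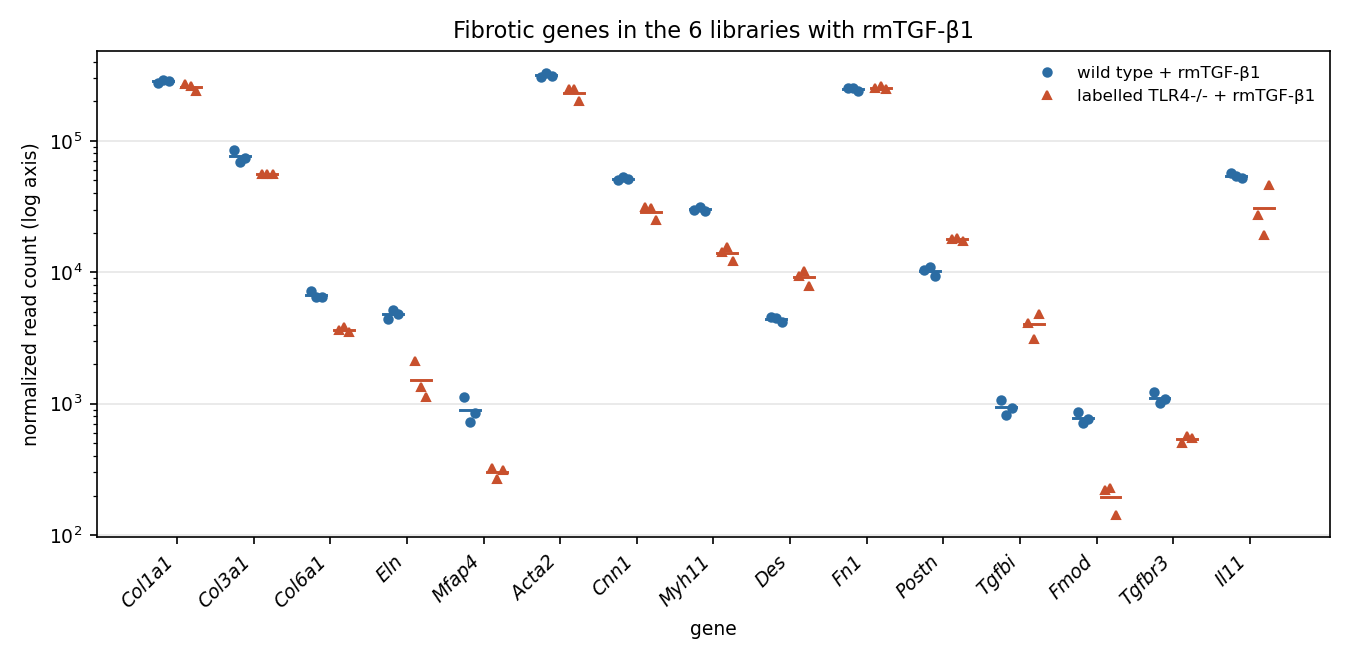
Normalized read counts (vertical log axis) of 15 fibrotic genes in the 3 WT libraries (blue circles) and the 3 libraries labelled TLR4-/- (orange triangles) with rmTGF-β1; each point is a library and each bar the mean of 3. Fn1 overlaps between the groups, Eln lies at 4383 to 5133 in WT and at 1130 to 2101 in labelled TLR4-/- libraries, and Des, Postn and Tgfbi are higher under the label.

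**Figure D3:**
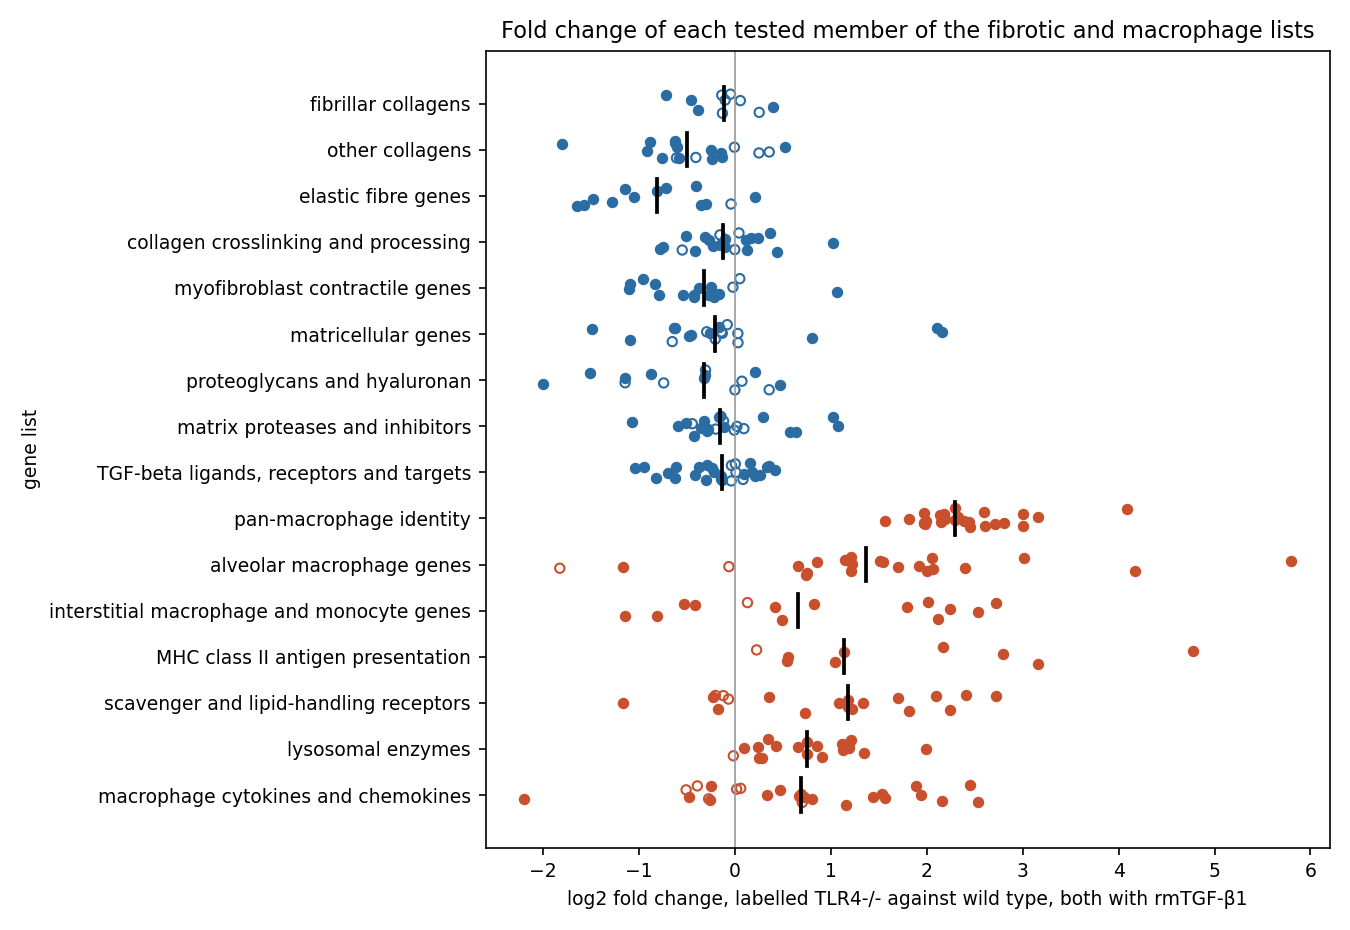
Log2 fold change (horizontal axis) of each tested member of the 9 fibrotic (blue) and 7 macrophage (orange) lists, labelled TLR4-/- against WT, both with rmTGF-β1. Filled points passed the test, open points did not, and the black bar is the list's median, which runs from -0.81 for the elastic fibre genes to 2.30 for the pan-macrophage identity genes.

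Markers of other cells that lung cultures could hold were read beside these lists. Of 25 tested fibroblast identity genes, 17 fell, 3 rose and 5 did not pass the test. Pi16, among the 3 that rose, averaged 6.89 normalized counts in WT and 45.6 under the label, so that count leans on the filter. Thy1, a surface glycoprotein of fibroblasts, had 17070, 15719 and 15895 normalized counts in WT and 7351, 7317 and 7036 in labelled TLR4-/- libraries, and Pdgfra, a growth factor receptor of lung fibroblasts, 6156, 5036 and 5276 against 2036, 2259 and 2371. Vim, the mesenchymal intermediate filament vimentin, rose by a log2 fold change of 0.17 (SE 0.05). Tcf21, a transcription factor of lung mesenchyme that marks lipofibroblasts, fell by a log2 fold change of -1.07 (SE 0.12). Members of this list thus differed by unequal amounts and in both directions.

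Of 8 endothelial markers, 6 fell, 1 rose and 1 did not pass the test, and their summed level overlapped, at 688.9 to 958.2 normalized counts in WT and 768.4 to 892.4 in labelled TLR4-/- libraries. Of the 6, Cldn5 and Erg averaged 2.72 and 8.02 normalized counts under the label, so that count leans on the filter. Cdh5, the endothelial cadherin, had 328, 214 and 253 normalized counts in WT and 68.2, 73.3 and 105 in labelled TLR4-/- libraries, whereas Vwf, the endothelial clotting factor, had 107, 93.0 and 88.7 against 507, 464 and 503. Of 8 pericyte and smooth muscle markers, 6 fell and 2 rose. Myh11 and Des among them are also contractile list members, and without these the summed level was 9618 to 10540 against 7011 to 7688. Of those that rose, Cspg4, a proteoglycan of pericytes, lost its call without the third library labelled TLR4-/-, at 0.10 in place of 0.26 on the log2 scale, and also without the first (0.19) or the third (0.23) WT library. Rgs5, a pericyte marker, had 185, 178 and 186 against 78.6, 60.6 and 67.3. The keratins Krt8 and Krt18 and the cadherin Cdh1 rose, by 3.45 (SE 0.28), 2.53 (SE 0.21) and 2.03 (SE 0.19) on the log2 scale, from levels of at most 25.0 normalized counts in WT, while the lung epithelial genes Epcam, Sftpc and Scgb1a1 had at most 11, 3 and 3 raw counts in any of the 6 libraries. The summed level of the epithelial list was 76.66 to 90.99 in WT and 335 to 345.6 in labelled TLR4-/- libraries. Of 6 tested mesothelial markers, 4 rose and 2 did not pass the test.

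Blood leukocytes other than macrophages left few reads. Cd3e, Cd3d and Igkc, the defining genes of T and B cells, and Ly6g, S100a9, Elane and Retnlg, defining genes of neutrophils, had none in the 6 libraries. Cd4, which macrophages can express at a low level, had 5.04, 5.0 and 5.07 normalized counts in WT and 33.1, 29.8 and 39.9 in labelled TLR4-/- libraries. Nkg7, the other tested member of the T, NK and B cell list, fell by a log2 fold change of -1.85 (SE 0.48). Its mean was 11.8 normalized counts in WT and 3.21 under the label, so both calls of this list rest on low counts. The summed level of the T, NK and B cell list reached 26.2 in WT and 54.1 in labelled TLR4-/- libraries, that of the neutrophil list 91.0 to 138 against 131 to 190, and that of the dendritic cell list 229 to 232 against 244 to 355, with 2, 3 and 2 members tested. Of 18 cell cycle genes, 10 rose, 0 fell and 8 did not pass the test, and the proliferation marker Mki67 had 1670, 1793 and 1735 against 2611, 2705 and 2554. The part of these markers in the differences of the fibrotic and macrophage lists was not tested.

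Receptors and adaptors of the Toll-like family were also counted. Of 18 tested genes of the TLR4 complex and its signalling, 11 rose, 3 fell and 4 did not pass the test. Of the 11, Tlr9 averaged 2.52 normalized counts in WT and 41.7 under the label. Among these 6 libraries only those of the label were high enough for the filter in Tlr9, so the count leans on it. The relatives Cd180 and Ly86, which form a complex like that of TLR4 and MD-2 on myeloid and B cells, rose by 2.17 (SE 0.11) and 3.05 (SE 0.12) on the log2 scale. Myd88, the adaptor common to most Toll-like receptors, did not pass the test, with a log2 fold change of 0.10 (SE 0.05), and passed it narrowly without the first library of either group, at 0.13. Lbp, which delivers lipopolysaccharide to CD14, fell by a log2 fold change of -0.56 (SE 0.19), and lost its call without the first WT library, at -0.41.

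The genes with the largest differences of the whole table included members of these lists and others. Where libraries did not overlap and the 6 of them averaged 50 normalized counts or more, the 10 largest rises were in Gm21451, Gm15446, Gdf3, Hpgd, Runx3, Cx3cr1, Fcrls, Cyp4f18, Ms4a6b and Krt8. Gm21451, a predicted gene, had no read in any WT library and 113, 154 and 123 normalized counts in labelled TLR4-/- libraries, at least 45.9-fold higher against a floor of 3 counts per library. Fcrls, an Fc receptor-like gene of macrophages and microglia, had 372, 320.0 and 374 against 5063, 4661 and 5210. Hpgd, the enzyme that inactivates prostaglandins, had 4.03, 10.0 and 4.23 against 140, 141 and 121. Gdf3 is a ligand of the TGF-β superfamily and Runx3 a transcription factor of leukocytes.

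The 10 largest falls were in Gdf10, Gm28438, Pappa2, Serpina3n, Abi3bp, Limch1, Igsf10, Alpl, Fgf10 and Cdh13. Gdf10, a further ligand of the TGF-β superfamily, had 234, 226 and 246 normalized counts in WT and 8.52, 5.31 and 9.75 in labelled TLR4-/- libraries, a log2 fold change of -4.85 (SE 0.23, edgeR adjusted p = 4.6e-14). Fgf10, the growth factor by which lung mesenchyme supports the epithelium, had 4474, 3589 and 3907 against 524, 675 and 529. Limch1, an actomyosin regulator listed among the fibroblast identity genes, had 2560, 1940 and 2150 against 257, 287 and 289. Serpina3n is a serine protease inhibitor and Abi3bp a matrix protein of mesenchymal cells.

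The same difference between genotypes was then read in the libraries with PBS, to ask whether it was another one under rmTGF-β1. This comparison uses 3 other libraries of each genotype. With PBS, 7379 of the 15735 genes were past the threshold, 3639 higher and 3740 lower in the labelled TLR4-/- libraries. Of the 7270 genes past it with rmTGF-β1, 5376 (73.9%) were also past it with PBS, which is 72.9% of those called with PBS, and 5337 of the 5376 had the same direction. Across the 15735 genes, which are not independent replicates, the log2 fold changes of the comparisons had a Pearson correlation of 0.865. Nothing says whether the PBS and rmTGF-β1 libraries of a genotype came from the same pool.

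The median log2 fold change of all macrophage list members was 1.19 with rmTGF-β1 and 1.20 with PBS, and that of all fibrotic list members was -0.24 and -0.20. Medians of single lists were further apart: the median was 1.18 with rmTGF-β1 and 0.74 with PBS for scavenger and lipid-handling genes, 0.69 and 0.97 for macrophage cytokines and chemokines, and -0.64 and -0.39 for the fibroblast identity genes. Taken gene by gene, the difference between the treatments was smaller, with medians of 0.05, -0.16 and -0.11 for these lists. The gaps between list medians thus rest in part on which member stands in the middle. Csf1r differed by 2.29 with rmTGF-β1 and by 2.20 with PBS, Eln by -1.64 and -1.45, and Acta2 by -0.42 and -0.36. When the difference of the differences was tested, 13 of the 15735 genes (0.0826%) passed, of which 6 had the higher and 7 the lower value under rmTGF-β1, and 1631 (10.4%) had an unadjusted p under 0.05. None of the 164 fibrotic or the 125 macrophage members was among the 13 in edgeR's test, while 24 (14.6%) and 17 (13.6%) of them had an unadjusted p under 0.05. Among the 9 fibrotic and 7 macrophage lists, that share was highest for interstitial macrophage and monocyte genes (5 of 14, 35.7%) and for the TGF-β ligands, receptors and targets (9 of 28, 32.1%). DESeq2 called 3 members of these lists, Acan, Col27a1 and Pdgfa. In edgeR, 6 members (Abca1, Col27a1, Col7a1, Id2, Pdgfa and Tgfbi) were called without the second labelled TLR4-/- library with rmTGF-β1, and Acan without the first WT library with rmTGF-β1 or with a filter of a mean count of at least 10. The count of 13 rested on single libraries: it was 0 without the first or the second WT library with PBS, the second or the third WT library with rmTGF-β1, the second labelled TLR4-/- library with PBS or the first one with rmTGF-β1, and 116 without the second labelled TLR4-/- library with rmTGF-β1.

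A p above the threshold does not show that the difference was the same in both treatments. The fibrotic gene nearest to the threshold was Acan, the proteoglycan aggrecan, whose log2 fold change was -0.87 (SE 0.07) with rmTGF-β1 and -0.44 with PBS, a difference of -0.43 with an edgeR adjusted p of 0.11. Among the 13 genes was Acvr1, a type I receptor of the BMP and activin ligands, which was not in the lists. Acvr1 had 3490 ± 91.8 (SD, n = 3) normalized counts in WT and, under the label, 4362 ± 424 (SD, n = 3) with rmTGF-β1, against 2818 ± 91.4 (SD, n = 3) and 2690 ± 35.4 (SD, n = 3) with PBS. Its genotype difference was thus 0.40 larger on the log2 scale with rmTGF-β1 (SE 0.07, edgeR adjusted p = 0.044).

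**Figure D4:**
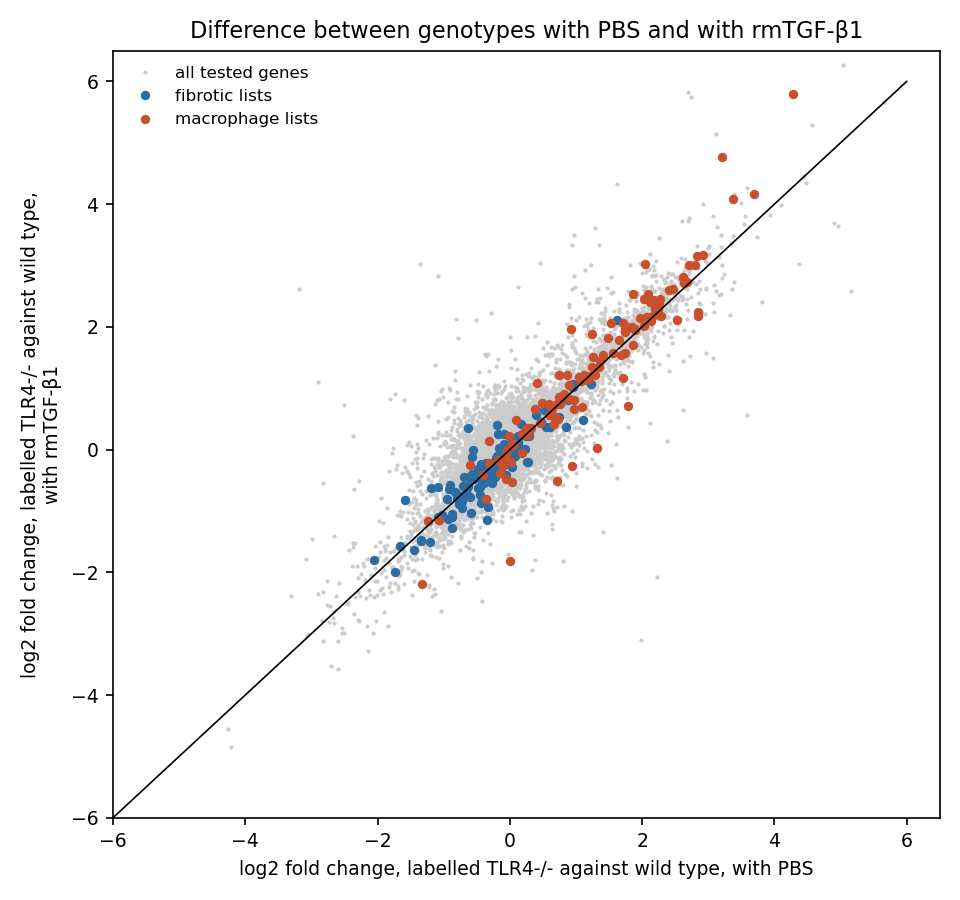
Log2 fold change of labelled TLR4-/- against WT with PBS (horizontal axis) and with rmTGF-β1 (vertical axis) for all tested genes (grey), members of the fibrotic lists (blue) and of the macrophage lists (orange, which cover the few genes in both); the line marks equal values. Points follow the line, with a Pearson correlation of 0.865 across genes, and 2 genes lie outside the axes.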

How the data were processed

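The members of every list and the comparisons were chosen with earlier results of these data known. The authors checked reads with FastQC, aligned them with STAR2 and counted them per gene symbol with HTSeq; the deposited values are raw read counts of 24 libraries, made with a stranded total RNA kit. The labels name the build NCBIM37, the strand option is not given in the sources used here, and genes are given by symbol without positions.

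Of 55291 names, 34285 had a read and 16258 passed edgeR's filterByExpr. All 24 libraries were fitted with 8 condition means in edgeR 4.0.16 (TMM, quasi-likelihood test), with Benjamini-Hochberg adjustment over all tested genes and a threshold of 0.1. X- and Y-linked genes, found through GENCODE M21 and RefSeq tables, were then left out, and 57 tested names that matched neither were kept. "All tested genes" means the 15735 that remained. SE was derived from the F statistic, and normalized counts are counts divided by DESeq2 1.42.0 size factors, so levels are not comparable between genes. The genes outside the lists are the 10 largest rises and the 10 largest falls that passed the test, averaged 50 normalized counts or more and had no overlap, and genes of the interaction test. Of 286 tested fibrotic and macrophage members, 79 overlap exons of another gene, 33 of them a protein-coding one, in GENCODE M21. Tagln is one of the 33, and so are Csf1r, Stab1, Ctsd, Mfap4, Mmp12 and Col4a2. The caution given for Tagln holds for these genes too. Library totals were 31585969 to 39664606 reads on genes. Precision depended on these totals for genes with few reads and on the spread between libraries for well counted ones. On simulated data, the genotype test on 15938 genes recovered 86 of 100 genes changed 1.5-fold and 98 of 100 changed 2-fold, with 18 false calls. The simulated counts had the same dispersion for all genes and no library that stood apart, and genes of low count were not changed. These rates are therefore not the error rates of the test on the real libraries. Alternatives were DESeq2, RLE size factors, other filters, a replicate block, sex-linked genes removed first, only the libraries compared, matched names only, a threshold of 0.05 and each library left out.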

Additional observations from a re-analysis of the deposited data

Results flagged for a closer look

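The genotype difference was tested for being another one with rmTGF-β1 than with PBS, and 13 genes passed the threshold in edgeR's test. The gene with the largest value was Bc1, a short brain cytoplasmic RNA, at 3.23 on the log2 scale. Tmem86a followed with 0.61, Gtf2h2 with 0.47, Acvr1 with 0.40 and Cfdp1 with 0.26 among those with a higher value under rmTGF-β1. On the other side stood Fam174a with -0.43, Kctd12 with -0.40, Rras2 with -0.39, Cited2 with -0.38 and Abhd17b with -0.35. Kctd12 and Tmem86a were higher in labelled TLR4-/- libraries in both treatments, by 0.96 and 1.60 with rmTGF-β1 and 1.36 and 0.99 with PBS on the log2 scale. Cited2, a transcriptional co-regulator, and Rras2, a small GTPase, were at -0.44 and -0.40 with rmTGF-β1 and at -0.06 and -0.01 with PBS. The count changes when single libraries are left out.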

How the results depend on the processing

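Under every alternative tried, the count of genes past the threshold in the genotype comparison stayed within 1.5 times 7270 (6231 at an adjusted p under 0.05 to 7285 with RLE size factors), and the members past it in the fibrotic and macrophage lists numbered 218 to 244, against 226. The count of 13 in the interaction did not hold: it was 155 with DESeq2, 540 with no filter, 22 with a mean raw count of at least 10, 6 at an adjusted p under 0.05, and 0 to 116 when each library was left out, while 1372 to 1811 genes had an unadjusted p under 0.05. With no filter 42 list members were called in the interaction; the cause was not tested. A replicate block in the model left 7270 genes past the threshold in the genotype comparison, 229 list members and 21 genes in the interaction. Same-numbered libraries of the genotypes correlated at -0.044, -0.025 and -0.032, so no pairing by number was seen. With 3 libraries per group these values cannot exclude such a pairing.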
